A study of Arabidopsis thaliana with 72 samples.

Results

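The measurements described here are the RNA levels of phr1 phl1 double mutant seedlings of Arabidopsis thaliana that were starved of phosphate with or without flg22. They comprise 12 of the 72 RNA-seq libraries of the series, 6 from flg22-treated and 6 from untreated seedlings, and were chosen by genotype, phosphate supply and treatment alone. Whole seedlings grew first for 7 days on Johnson medium (1 mM phosphate, 1% sucrose) and were then moved for 12 days to medium with about 5 µM phosphate (low Pi). The flg22 group had 1 µM flg22 in that medium for all 12 days, and the untreated group had medium with no addition. Within each group, 3 libraries belong to experiment A and 3 to experiment B, which the labels call independent. For comparison, the same pair of treatments was used in the wild-type accession Col-0 at low Pi (6 flg22 and 6 untreated libraries) and in phr1 phl1 on 1 mM phosphate (high Pi, 6 flg22 and 6 untreated libraries). All these groups share the medium, the sucrose and short days (9 h light, 15 h dark). The labels name neither the phr1 nor the phl1 allele.

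The peptide flg22 is a conserved stretch of bacterial flagellin. The receptor kinase FLS2 and its co-receptor BAK1 bind it, and a phosphorylation cascade then switches on defence genes, with callose deposition, an oxidative burst and slower root growth as the textbook outputs. PHR1 and its close relative PHL1 are MYB transcription factors that drive most of the transcriptional response to phosphate starvation through a promoter element called P1BS. Plants without them take up and store less phosphate.

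The 12 libraries held 2448082 to 5925379 counts, with a median of 3720626.5. PHR1 had 15.6 to 43.3 CPM (read counts relative to the scaled total of the library, on 1 scale for all 72 libraries) in the flg22 libraries of the mutant at low Pi and 16.8 to 35.0 in the untreated ones, against 60.0 to 73.9 and 54.3 to 69.0 in flg22 and untreated Col-0 libraries. PHL1 went the other way, with 53.2 to 126 CPM in flg22 and 48.1 to 93.5 CPM in untreated mutant libraries, against 6.58 to 16.0 and 7.30 to 12.3 in Col-0. Counts per gene do not show which part of a transcript the reads cover, so both genes mark the mutant libraries but say nothing of the protein. Both sets of mutant libraries overlapped for each gene, and neither PHR1 (log2 change -0.01 ± 0.15 SE, adjusted p = 0.986) nor PHL1 (0.24 ± 0.17, adjusted p = 0.449) passed the test between flg22 and untreated libraries. In the comparison group at high Pi, the library labelled untreated B1 stands apart from its group in PHR1 (68.5 CPM, against 29.8 for the median of its group). The counts and differences that use it are therefore also given without it.

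After 12 days of flg22 several genes of pattern-triggered immunity were higher. So were the defensin genes PDF1.2 and PDF1.3 and the nitrate transporter genes NRT2.6 and NRT1.8. Of 48 tested peroxidase genes 13 were higher and 4 lower. A few genes each of salicylic acid synthesis and regulation, membrane lipid remodelling and mitochondrial stress were lower. A few iron uptake genes were lower in the test over both experiments together, which does not mean lower in each. In experiment A alone the iron deficiency genes that passed had all risen. Of 17112 genes tested, 679 rose (3.97%) and 352 fell (2.06%) at an adjusted p under 0.05 in edgeR's quasi-likelihood test with experiment as a covariate, 6.03% in both directions together. The median log2 change was 0.61 among genes that rose and -0.59 among those that fell, against -0.02 over all genes tested. Changes of at least 2-fold were found in 125 genes that rose and 56 that fell. In 276 genes (1.61% of those tested) the lowest library of one treatment lay above the highest of the other, and 129 of the genes that rose and 81 of those that fell were among them.

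The gene with the smallest p was AT5G40590. It had 54.7, 76.5 and 85.5 CPM (lowest, median and highest of 6) in flg22 libraries, against 7.0, 10.2 and 15.8 in untreated ones. All flg22 libraries were thus above all untreated ones, and the log2 change was 2.72 ± 0.14 (adjusted p = 6.24e-11). The largest rise was that of PRX52, a class III peroxidase involved in lignin formation, with 5.6, 23.8 and 38.2 CPM in flg22 libraries and 0, 1.24 and 5.0 CPM in untreated ones (log2 change 3.93 ± 0.66, adjusted p = 0.00849). The groups of PRX52 did not overlap, though the lowest flg22 library was close to the highest untreated one, replicate B1, without which the log2 change was 4.68. The plant defensin gene PDF1.3 rose by 3.73 ± 0.68 (adjusted p = 0.0138), or by 4.57 without untreated replicate B1, with 7.6 to 43.4 CPM in flg22 libraries and 0.40 to 6.7 CPM in untreated ones. Its relative PDF1.2 rose by 2.86 ± 0.61 (adjusted p = 0.0245), with 1.65 to 30.1 CPM in flg22 libraries and 0.40 to 5.3 CPM in untreated ones, and here the lowest flg22 library lay among the untreated ones. These defensin genes are near-identical copies, so reads may have been divided between them.

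A pair of nitrate transporter genes was also among the largest rises. NRT2.6 had 4.4, 35.0 and 83.8 CPM in flg22 libraries, against 0.60, 3.0 and 7.4 CPM in untreated ones (log2 change 3.65 ± 0.56, adjusted p = 0.00577). NRT1.8, which retrieves nitrate from the xylem sap, had 6.8, 51.0 and 212 CPM in flg22 libraries, against 4.0, 7.5 and 22.1 CPM in untreated ones (2.89 ± 0.58, adjusted p = 0.021). In both genes a single flg22 library or more fell within the range of untreated libraries. The trypsin inhibitor gene KTI1 (3.38 ± 0.52) and the osmotin gene OSM34 (2.41 ± 0.36) spanned 65.3 to 1094 and 82.7 to 1017 CPM in flg22 libraries, against 14.8 to 94.4 and 39.1 to 120.0 CPM in untreated libraries. AT5G39520 rose by 2.54 ± 0.44 (adjusted p = 0.00688). The peroxidase gene AT5G39580 rose by 3.01 ± 0.39 with no overlap (15.7 to 61.0 CPM in flg22 libraries, 1.88 to 10.4 CPM in untreated libraries).

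**Figure D1:**
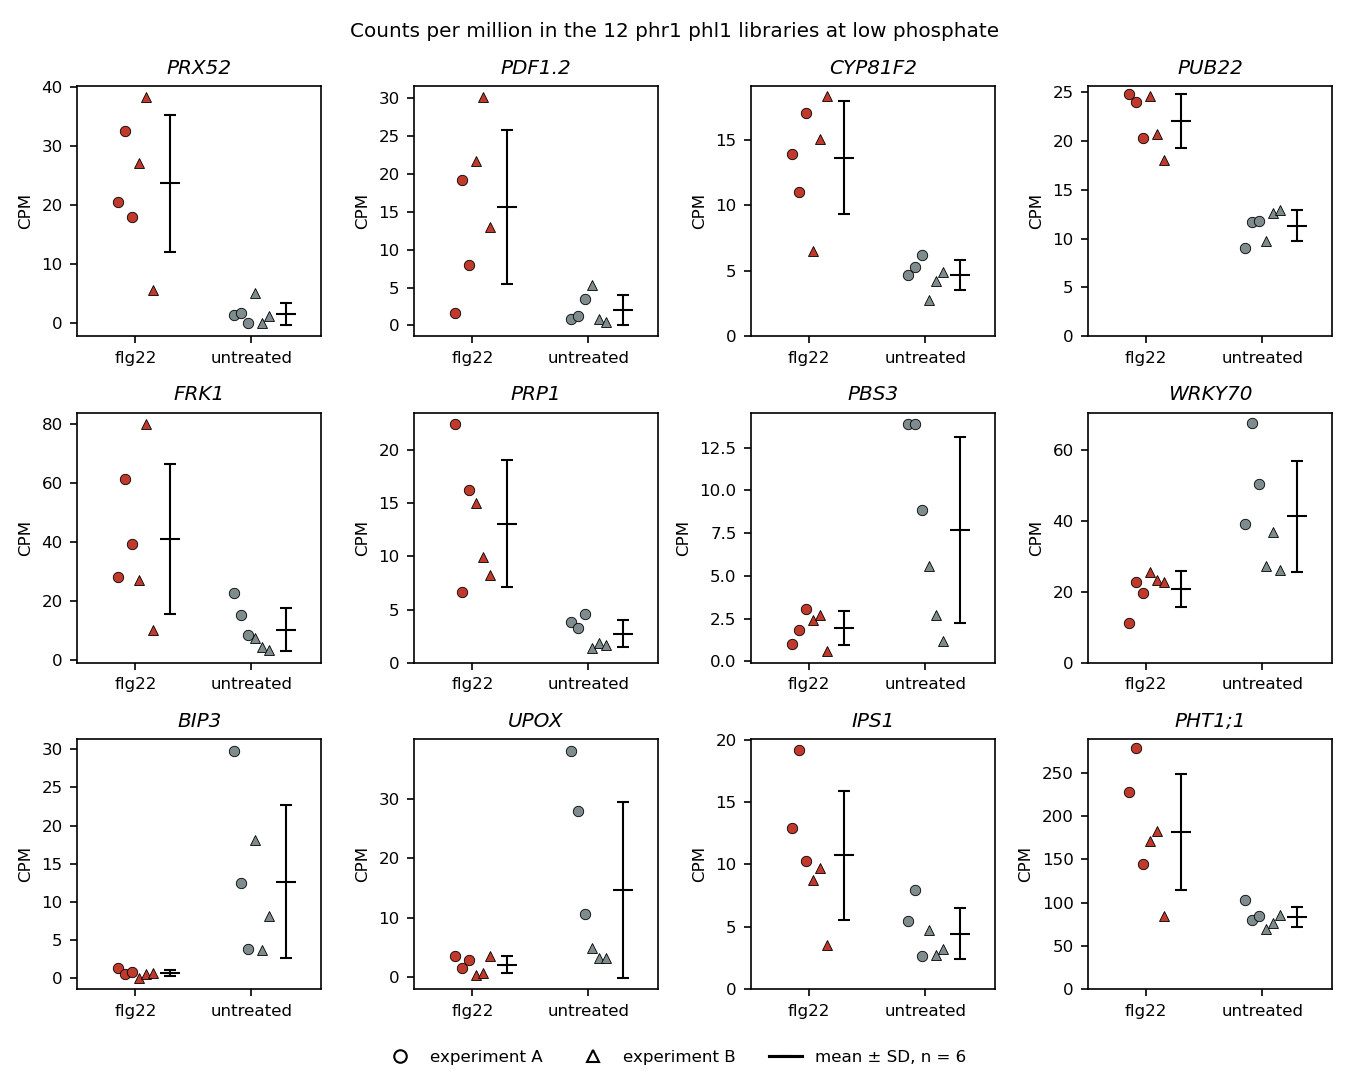
CPM (y axis) of 12 named genes in the 6 flg22 and 6 untreated phr1 phl1 libraries at low Pi, 1 point per library, with circles for experiment A, triangles for experiment B and a bar for the mean ± SD of 6 libraries. PRX52, CYP81F2, PUB22, PRP1, WRKY70 and BIP3 show no overlap between treatments, while PDF1.2, FRK1, PBS3, UPOX, IPS1 and PHT1;1 do.

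A single flg22 library was at the low end of many of these rises. Flg22 replicate B3 was the lowest of the 6 flg22 libraries in 341 of the 679 genes that rose (50.2%), against 19.4% of all genes tested. Without that library 719 genes rose and 403 fell. Among genes that fell, the highest untreated library was most often replicate B2, in 99 of 352 (28.1%, against 17.9% of all genes tested). This counts the highest untreated library and the share of B3 the lowest flg22 library, so the shares are not alike. Of the genes that rose, 674 could also be tested in each experiment alone, and all of these had a positive change in both. Likewise 343 genes that fell were tested in each, all with a negative change in both. Both experiments entered the test that called these genes, so equal signs were favoured in advance and are not independent agreement. The changes of these genes were on the whole larger in experiment A. The medians were 0.67 (A) and 0.57 (B) for genes that rose and -0.72 (A) and -0.45 (B) for genes that fell. No gene passed the test of the difference between the 2 experiments in edgeR among 17821 tested (0%), with 1589 at an unadjusted p under 0.05, while DESeq2 called 4 with a more positive and 12 with a more negative change in experiment B.

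The number of genes that fell depended on single libraries more than the number that rose. Leaving out 1 library at a time gave 471 to 719 genes that rose and 164 to 453 that fell, and the count of falls was 164 without flg22 replicate A2 and 217 without flg22 replicate A3. Of 84 called genes followed through these 12 fits, 52 passed in every fit and none changed sign. The other 32 failed in at least 1 fit: PEN2, PEN3, IRT1, FRO2, NRT1.8, PRR7, PDF1.2, RHS19, RING1, AT3G28580, GSTU24, SPX2, CHIB, EDS5, BAK1, SEN1, WRKY70, AGP5, AT1G43910, AT3G28510, IOS1, ANK, BCAT3, FMOGS-OX1, HIR2, JOX2, NAP, ZAT10, CYP81F3, PRX34, CYP86A1 and PER64. The highest adjusted p among them was 0.152, for PER64 without flg22 replicate A2.

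**Figure D2:**
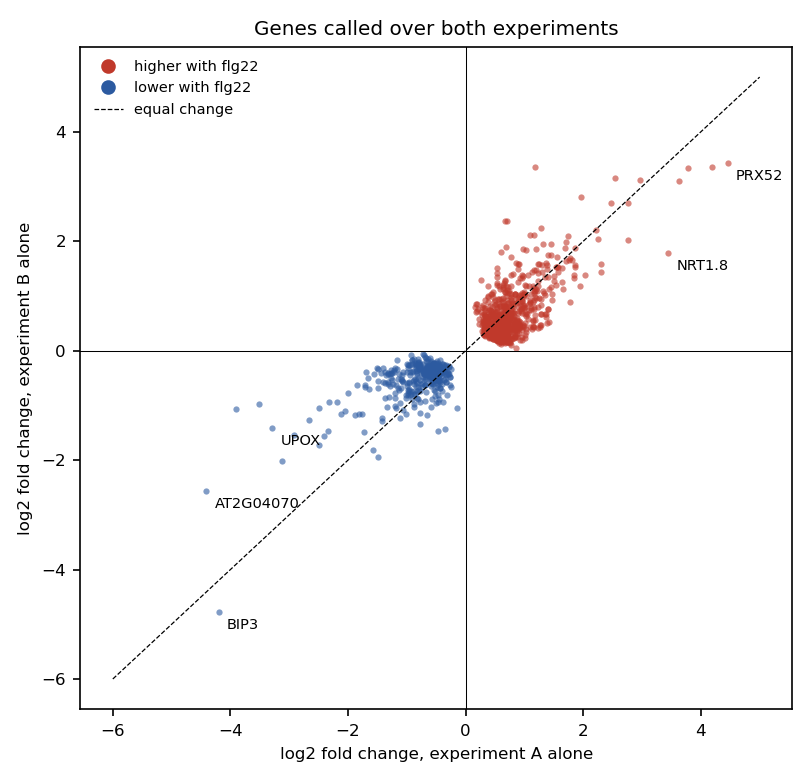
Log2 fold change (flg22 over untreated) in experiment A alone (x axis) and experiment B alone (y axis) for each gene that passed the test over both experiments and was tested in each, red for genes that rose and blue for genes that fell. All points lie in the lower left or upper right quadrant, which calling genes over both experiments together favours. UPOX and AT2G04070 lie farther from 0 in experiment A than in B, and the dashed line marks equal change.

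Over all genes tested 3.97% rose and 2.06% fell, and each list count over both experiments, here and below, is to be read against these shares. The lists were chosen with earlier results of these data known, so larger shares may have been favoured in advance. Among the receptors and early signalling components, 6 of 31 tested genes rose and none fell, with a median log2 change of 0.14. FLS2 itself, the flg22 receptor, had 8.5, 16.4 and 33.5 CPM in flg22 libraries and 9.3, 14.3 and 24.4 CPM in untreated ones (log2 change 0.12 ± 0.17, adjusted p = 0.745). Its co-receptor BAK1 rose by 0.30 ± 0.08 (adjusted p = 0.0299), with ranges that overlapped. The ubiquitin ligase genes PUB22 and PUB23, whose products attenuate flg22 signalling, rose without overlap. PUB22 had 18.0, 22.3 and 24.8 CPM in flg22 libraries against 9.0, 11.7 and 12.9 CPM in untreated ones (0.98 ± 0.13, adjusted p = 0.000176), and PUB23 had 41.0 to 52.3 CPM in flg22 libraries against 24.9 to 38.1 CPM in untreated ones (0.60 ± 0.11). The mitogen-activated protein kinase gene MPK3 rose by 0.50 ± 0.11 (66.5 to 101 CPM in flg22 libraries, 43.7 to 66.4 CPM in untreated libraries). The cytoplasmic kinase gene BIK1 (0.63 ± 0.15) and the receptor kinase gene IOS1 (0.87 ± 0.22) rose with overlap.

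Of 25 tested output genes of pattern-triggered immunity, 8 rose and 1 fell, and the median log2 change was 0.71. CYP81F2, a cytochrome P450 that hydroxylates indole glucosinolates, had 6.5, 14.5 and 18.3 CPM in flg22 libraries against 2.8, 4.7 and 6.2 CPM in untreated ones (1.54 ± 0.23, adjusted p = 0.000483). MLO12, a membrane protein of the mildew resistance family, had 63.5, 73.9 and 125 CPM in flg22 libraries against 29.5, 36.2 and 44.5 CPM in untreated ones (1.16 ± 0.14, adjusted p = 8.2e-05). The groups did not overlap in either gene. The peroxidase genes PER4 (1.34 ± 0.21), PRX71 (1.73 ± 0.29) and PRX34 (1.77 ± 0.44), the receptor kinase gene SIF2 (1.04 ± 0.19) and the transcription factor genes WRKY22 (0.92 ± 0.21) and ZAT10 (0.72 ± 0.20) also rose. PRX34 is close in sequence to a neighbouring peroxidase gene, so its reads are uncertain. FRK1, a receptor kinase gene widely used as a marker of flg22, had 10.3, 33.7 and 79.8 CPM in flg22 libraries against 3.6, 8.0 and 22.7 CPM in untreated ones, and with overlapping ranges it did not pass (1.97 ± 0.54, adjusted p = 0.0662). CML41, a calmodulin-like protein of plasmodesmata, fell by 2.44 ± 0.40 (adjusted p = 0.00437), with 1.77 to 5.6 CPM in flg22 libraries and 2.4 to 30.7 CPM in untreated ones, and was too low in experiment B to be tested there.

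WRKY transcription factors, which act downstream of flg22, bind the W-box. A W-box (TTGACC or TTGACT, either strand) was found in the 300 bases before the annotated gene start of 289 of 679 genes that rose (42.6%) and 117 of 352 that fell (33.2%), against 31.9% of 17100 tested genes with such a stretch. At least 2 W-boxes were found in 96 genes that rose (14.1%) and 27 that fell (7.67%), against 7.55% of all. The P1BS element (GNATATNC, its own reverse complement) was found in 59 genes that rose (8.69%) and 34 that fell (9.66%), against 6.58% of all. These are counts of letters with no test, not evidence of binding. The stretches of 3 genes that rose and 2 that fell are printed because they hold several of these motifs and belong to genes described here. They were read on the gene's strand from the TAIR10.1 assembly of RefSeq, since the count table gives no coordinates, with the W-box or P1BS letters in capitals. They are CYP81F2 (chr5:23187540-23187839, plus strand, 2 W-boxes), PUB22 (chr3:19442428-19442727, minus strand, 3 W-boxes), SIF2 (chr1:19256928-19257227, minus strand, 3 W-boxes, of which 2 stand side by side), EDS5 (chr4:18185137-18185436, plus strand, 2 W-boxes) and GDPD1 (chr3:350011-350310, minus strand, 2 P1BS and 1 W-box).
CYP81F2: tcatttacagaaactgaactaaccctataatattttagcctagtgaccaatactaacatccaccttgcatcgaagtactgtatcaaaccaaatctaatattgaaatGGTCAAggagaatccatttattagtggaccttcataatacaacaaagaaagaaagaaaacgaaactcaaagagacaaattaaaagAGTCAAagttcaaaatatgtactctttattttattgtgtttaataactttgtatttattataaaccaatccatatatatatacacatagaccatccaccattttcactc
PUB22: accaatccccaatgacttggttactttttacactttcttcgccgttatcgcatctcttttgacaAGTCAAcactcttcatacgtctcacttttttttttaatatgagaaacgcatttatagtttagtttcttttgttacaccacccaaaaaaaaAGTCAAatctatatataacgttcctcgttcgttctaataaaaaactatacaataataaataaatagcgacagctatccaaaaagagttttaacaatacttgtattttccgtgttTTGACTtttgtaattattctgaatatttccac
SIF2: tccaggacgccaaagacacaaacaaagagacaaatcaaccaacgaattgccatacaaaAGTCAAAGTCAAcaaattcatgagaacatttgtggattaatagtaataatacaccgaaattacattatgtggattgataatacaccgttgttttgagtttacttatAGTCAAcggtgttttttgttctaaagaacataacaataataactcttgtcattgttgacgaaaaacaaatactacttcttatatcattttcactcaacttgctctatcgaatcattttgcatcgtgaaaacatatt
EDS5: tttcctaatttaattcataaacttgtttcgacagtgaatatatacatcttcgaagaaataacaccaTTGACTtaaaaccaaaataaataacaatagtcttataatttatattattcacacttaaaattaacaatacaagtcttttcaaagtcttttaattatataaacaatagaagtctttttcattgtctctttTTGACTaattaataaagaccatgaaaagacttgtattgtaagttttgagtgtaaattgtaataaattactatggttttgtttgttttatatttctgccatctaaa
GDPD1: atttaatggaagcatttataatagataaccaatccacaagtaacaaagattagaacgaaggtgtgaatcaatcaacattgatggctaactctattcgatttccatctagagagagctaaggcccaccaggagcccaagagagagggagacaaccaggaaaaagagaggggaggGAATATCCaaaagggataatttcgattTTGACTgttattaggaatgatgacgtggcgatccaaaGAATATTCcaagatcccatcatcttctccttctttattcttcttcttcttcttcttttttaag

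Few salicylic acid synthesis genes passed, and those that did fell. This hormone is made from isochorismate, which ICS1 produces, EDS5 carries out of the plastid and PBS3 joins to glutamate. Of 25 tested synthesis and regulator genes, none rose and 3 fell (median log2 change -0.09), against 3.97% and 2.06% of all genes tested. PBS3 had 0.59, 2.1 and 3.1 CPM in flg22 libraries against 1.21, 7.2 and 13.9 CPM in untreated ones (-1.87 ± 0.38, adjusted p = 0.00825), so that it was low in all flg22 libraries and high in the untreated libraries of experiment A. It was too low in experiment B to be tested there. EDS5 had 2.6 to 7.5 CPM in flg22 libraries against 4.9 to 11.7 CPM in untreated ones (-0.94 ± 0.24, adjusted p = 0.0239). The transcription factor gene WRKY70 had 11.2, 22.8 and 25.6 CPM in flg22 libraries against 26.3, 38.1 and 67.8 CPM in untreated ones (-0.96 ± 0.25, adjusted p = 0.0415), without overlap. ICS1 did not pass (-0.46 ± 0.20, adjusted p = 0.20).

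Of 18 tested genes that respond to salicylic acid, 2 rose and 1 fell (median log2 change -0.64), against 3.97% and 2.06% of all genes tested. In experiment A alone 1 of 19 rose and 4 fell (median -1.02), against 2.31% and 1.51% of all genes tested there, or 3.82% together. In experiment B alone none of 18 passed (median -0.02), against 0.661% and 0.176% of all genes, or 0.837% together. The gene that fell over both was ANK, which encodes an ankyrin repeat protein, with 0.62, 2.5 and 8.1 CPM in flg22 libraries against 4.4, 13.7 and 16.8 CPM in untreated ones (-1.98 ± 0.51, adjusted p = 0.0465). The genes that rose were the metacaspase gene MC2 (0.91 ± 0.15, adjusted p = 0.00103) and the arabinogalactan protein gene AGP5 (0.91 ± 0.25, adjusted p = 0.0322). The pathogenesis-related gene PR1 had 32.8, 70.6 and 135 CPM in flg22 libraries against 84.3, 214 and 398 CPM in untreated ones. Its ranges overlapped and it did not pass (-1.57 ± 0.45, adjusted p = 0.079), nor did PCC1 (-1.77 ± 0.57, adjusted p = 0.111) or LURP1 (-1.81 ± 0.49, adjusted p = 0.0664).

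Of 16 tested jasmonate and ethylene output genes, 5 rose and none fell (median log2 change 0.19). Besides the defensin genes they were HEL, which encodes the chitin-binding protein PR4, the basic chitinase gene CHIB and the jasmonate oxidase gene JOX2. HEL had 98.4 to 722 CPM in flg22 libraries against 59.0 to 208 CPM in untreated ones (1.71 ± 0.30, adjusted p = 0.00942). CHIB (0.68 ± 0.17) and JOX2 (0.53 ± 0.15) rose less.

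**Figure D3:**
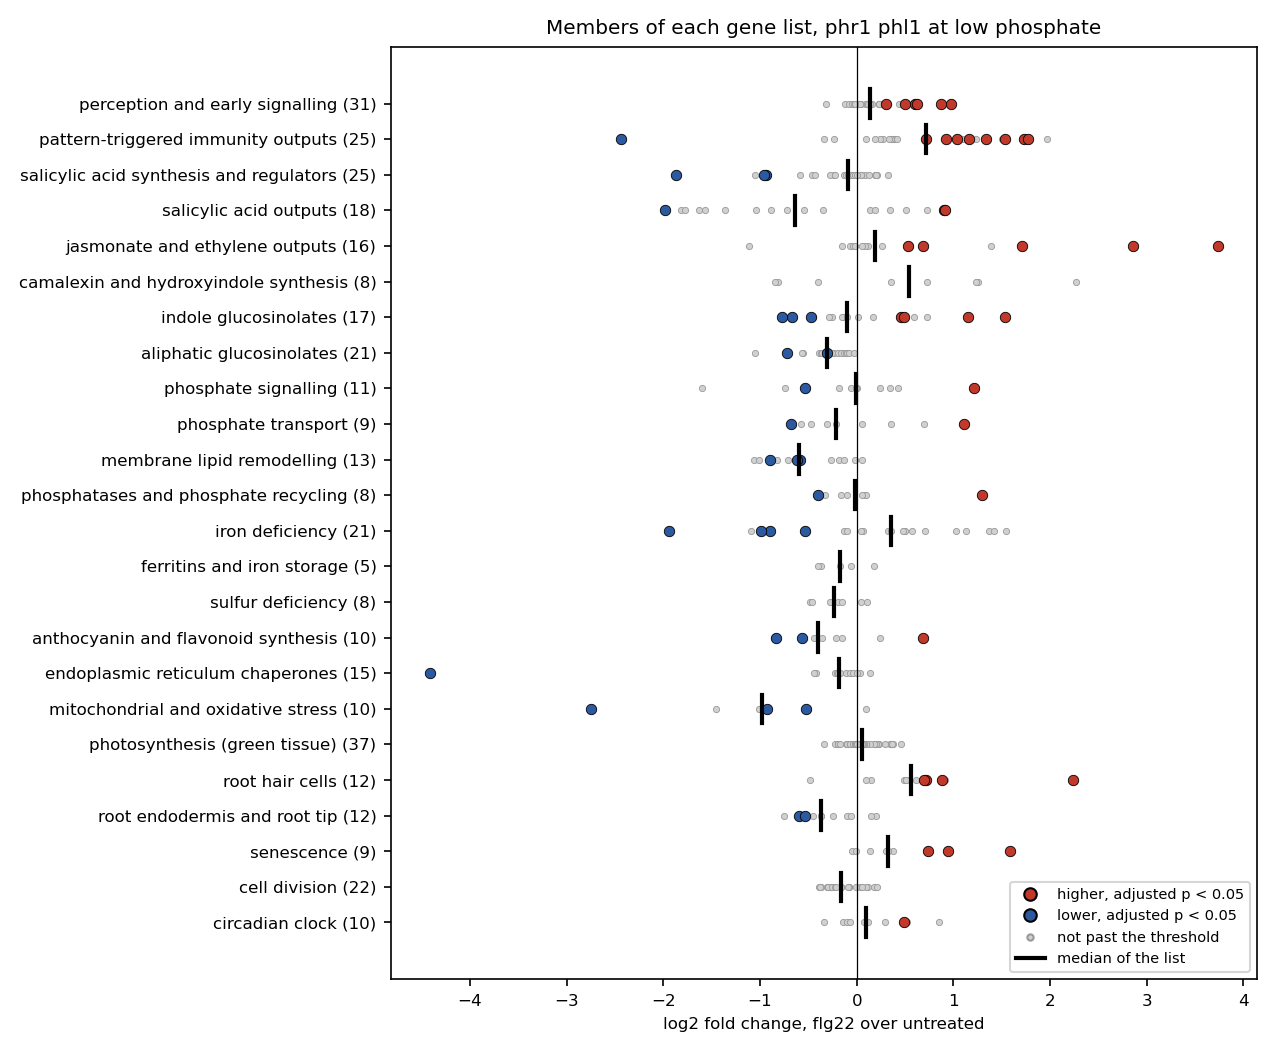
Log2 fold change (flg22 over untreated, x axis) of each tested member of the 24 gene lists (y axis, number tested in brackets) in phr1 phl1 at low Pi, with large red and blue points for members past an adjusted p of 0.05, small grey points for the rest and a black bar for the list's median. The pattern-triggered immunity outputs have 8 red members and 1 blue, and the membrane lipid list has 3 blue members and no red.

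Genes of indole defence compounds changed in both directions. Of 17 tested indole glucosinolate genes, 4 rose and 3 fell. Those that rose were CYP81F2, the methyltransferase gene IGMT2 (1.15 ± 0.20, adjusted p = 0.00132, 8.1 to 13.6 CPM in flg22 libraries against 2.9 to 6.4 CPM in untreated ones), the atypical myrosinase gene PEN2 (0.46 ± 0.11) and the ABC transporter gene PEN3 (0.49 ± 0.13). Those that fell were CYP79B2, which makes the common precursor indole-3-acetaldoxime (-0.47 ± 0.10, adjusted p = 0.00564, 57.6 to 79.0 CPM in flg22 libraries against 80.3 to 110 CPM in untreated ones), CYP81F3 (-0.77 ± 0.22) and IGMT5 (-0.67 ± 0.13). IGMT2 lies beside near-identical methyltransferase genes, so its reads are uncertain. None of 8 tested genes of camalexin and hydroxyindole synthesis passed over both experiments (median log2 change 0.54). The largest were CYP82C2, with 1.77, 8.5 and 31.3 CPM in flg22 libraries against 1.21, 1.72 and 3.9 CPM in untreated ones (2.26 ± 0.63, adjusted p = 0.0658), and CYP71A12 (1.26 ± 0.36, adjusted p = 0.0739). Of 21 aliphatic glucosinolate genes, none rose and 2 fell, the aminotransferase gene BCAT3 (-0.31 ± 0.09) and the oxygenase gene FMOGS-OX1 (-0.72 ± 0.21).

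Few genes of phosphate starvation signalling and transport passed, and in both directions. Of 11 tested signalling genes, IPS1 rose and SPX2 fell. IPS1, a noncoding RNA that sequesters the microRNA miR399, had 3.5, 10.0 and 19.2 CPM in flg22 libraries against 2.7, 4.0 and 8.0 CPM in untreated ones (1.22 ± 0.27, adjusted p = 0.00973), with overlap. SPX2, a sensor that restrains PHR1, had 15.1 to 26.6 CPM in flg22 libraries against 25.1 to 34.0 CPM in untreated ones (-0.53 ± 0.13), and SPX1 did not pass (-0.74 ± 0.22, adjusted p = 0.0666). Of 9 tested transporter genes, PHT1;1 rose and the glycerol-3-phosphate permease gene G3PP1 fell (-0.68 ± 0.13, adjusted p = 0.00248). PHT1;1, the main root phosphate importer, had 84.5, 177 and 278 CPM in flg22 libraries against 69.0, 82.3 and 103 CPM in untreated ones (1.11 ± 0.20, adjusted p = 0.00571). A single flg22 library fell within the untreated range, and reads of PHT1;1 may be shared with its near-identical neighbour PHT1;2.

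Membrane lipid remodelling replaces phospholipids by sulfolipids and galactolipids when phosphate is short. Of 13 tested genes of this process none rose and 3 fell, with a median log2 change of -0.59. The sulfolipid synthesis gene SQD1 had 94.1, 118 and 135 CPM in flg22 libraries against 143, 182 and 199.6 CPM in untreated ones (-0.59 ± 0.11, adjusted p = 0.00248), without overlap. SQD2, the next enzyme, fell by 0.62 ± 0.13 on the log2 scale (adjusted p = 0.00877). The phosphodiesterase gene GDPD1 had 32.2, 56.3 and 63.6 CPM in flg22 libraries against 67.2, 93.6 and 141 CPM in untreated ones (-0.90 ± 0.19, adjusted p = 0.0118), also without overlap. Of 8 phosphatase and recycling genes, the ribonuclease gene RNS1 rose (1.29 ± 0.31, adjusted p = 0.0141) and the purple acid phosphatase gene PAP12 fell (-0.40 ± 0.10, adjusted p = 0.0161).

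Iron deficiency genes had different counts of calls in the 2 experiments, but none of 21 passed the test of the difference between experiments. In simulated data that test found 54% of differences of 1 on the log2 scale, so it cannot show equal responses. Of 21 tested iron deficiency genes none rose and 4 fell over both experiments, and their median log2 change was 0.35. In experiment A alone 5 of 20 rose and none fell (median 0.74), against 2.31% and 1.51% of all genes tested there. In experiment B alone none of 20 rose and 4 fell (median -0.26), against 0.661% and 0.176% of all genes. The iron transporter gene IRT1 had 51.9, 63.3 and 49.9 CPM in flg22 libraries A1, A2 and A3 against 58.9, 62.1 and 91.6 CPM in the untreated ones, which overlap. In experiment B it had 57.3, 54.6 and 46.4 CPM in flg22 libraries against 170.3, 137 and 122 CPM in untreated ones. The combined log2 change of IRT1 was -0.90 ± 0.20 (adjusted p = 0.0201), and that of the ferric reductase gene FRO2 was -0.99 ± 0.22 (adjusted p = 0.0241). The transcription factor gene FIT (-0.53 ± 0.12) and the scopoletin hydroxylase gene S8H (-1.94 ± 0.34) fell as well, and S8H was too low in experiment A to be tested there. None of 5 ferritin and iron storage genes and none of 8 sulfur deficiency genes passed.

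BIP3 had the largest fall among the genes named. This inducible chaperone of the endoplasmic reticulum had 0 to 1.32 CPM in flg22 libraries against 3.6, 10.3 and 29.9 CPM in untreated ones (-4.41 ± 0.76, adjusted p = 0.00862). It was the only 1 of 15 tested chaperone genes of that compartment to pass (median -0.18), against 6.03% of all genes tested. Of 10 tested genes of mitochondrial and oxidative stress none rose and 3 fell, with a median of -0.98. UPOX, a mitochondrial protein named for its response to oxidative stress, had 0.41, 2.2 and 3.6 CPM in flg22 libraries against 3.2, 7.9 and 38.0 CPM in untreated ones (-2.75 ± 0.51, adjusted p = 0.00966). NAC013, a transcription factor of the mitochondrial stress response, fell by 0.93 ± 0.20, and the glutathione transferase gene GSTU24 fell by 0.52 ± 0.14. The untreated libraries of experiment A were the high ones in UPOX (10.7 to 38.0 CPM, against 3.2 to 5.0 CPM in experiment B). Other large falls were those of the neighbouring transporter genes AT2G04070 (-4.03 ± 0.54) and AT2G04050 (-2.73 ± 0.51), the ATPase genes AT1G43910 (-2.38 ± 0.56), AT3G28510 (-2.07 ± 0.49) and AT3G28580 (-2.00 ± 0.46) and the RING-finger ubiquitin ligase gene RING1 (-2.20 ± 0.47). AT2G04050 and AT2G04070 are close copies, so reads may be shared. The arabinogalactan protein gene AGP30 fell by 2.1 ± 0.23 (adjusted p = 1.19e-05), with 2.1 to 8.0 CPM in flg22 libraries and 11.4 to 19.4 CPM in untreated ones.

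The makeup of whole seedlings can shift between treatments, and in bulk RNA fewer cells of a type and less RNA per cell cannot be told apart. None of 37 tested photosynthesis genes passed (median log2 change 0.05), and their summed level was 109100 to 154300 CPM in flg22 libraries and 84120 to 133000 CPM in untreated ones. Of 12 root hair genes 4 rose and none fell (median 0.56), with summed levels of 169 to 292 CPM in flg22 libraries and 86.8 to 209 CPM in untreated ones. The cell wall gene PRP1 had 6.6, 12.5 and 22.5 CPM in flg22 libraries against 1.39, 2.5 and 4.6 CPM in untreated ones (2.24 ± 0.29, adjusted p = 0.000186), and PRP3 (0.88 ± 0.19), RHS13 (0.72 ± 0.17) and RHS19 (0.70 ± 0.17) also rose. Of 12 endodermis and root tip genes none rose and 2 fell, the suberin gene CYP86A1 (-0.60 ± 0.17) and the Casparian strip peroxidase gene PER64 (-0.54 ± 0.16), with summed levels of 171 to 230 CPM in flg22 libraries and 186 to 260.0 CPM in untreated ones. The part of tissue makeup in the other results was not tested.

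Other processes changed in few genes. Chalcone synthase, CHS, the entry enzyme of flavonoid synthesis, had 81.8, 119 and 154 CPM in flg22 libraries against 190.4, 199 and 276 CPM in untreated ones (-0.83 ± 0.13, adjusted p = 0.000812). In the same list of 10 tested genes the glucosyltransferase gene UGT78D2 fell (-0.57 ± 0.12) and MYBL2, a repressor of the pathway, rose (0.68 ± 0.12). Of 9 senescence genes 3 rose, the transcription factor genes NAC092 (1.58 ± 0.23, adjusted p = 0.000334) and NAP (0.73 ± 0.20) and the dark-inducible gene SEN1 (0.95 ± 0.23). Of 10 clock genes PRR7 rose (0.49 ± 0.13) and no other passed, and none of 22 cell division genes passed (median -0.16).

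The 4 gene families that follow, by RefSeq product name, were picked after their values were seen and have no test; 3.97% of all genes tested rose and 2.06% fell. Of 48 tested genes whose product name marks them as peroxidases (DOX1 among them) 13 rose and 4 fell, with a median log2 change of 0.06. Of 35 tested MATE efflux transporter genes, the family of AT2G04050 and AT2G04070, 1 rose and 6 fell, with a median of -0.09. Of 17 tested berberine bridge enzyme-like oxidase genes 9 rose and none fell, with a median log2 change of 0.73, and 16 of the 17 had a positive change. Among them AT1G30730 rose by 1.46 ± 0.11 (adjusted p = 5.76e-08) and AT1G30720 by 1.36 ± 0.17. Of 16 tested chitinase genes 6 rose and none fell, with a median of 0.19. Among them AT4G01700 had 52.6, 88.3 and 99.9 CPM in flg22 libraries against 16.1, 28.3 and 38.5 CPM in untreated ones (1.66 ± 0.13, adjusted p = 2.38e-07).

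The flg22 response of the mutant at low Pi was then set against that of Col-0 at low Pi, which has PHR1 and PHL1. In its own fit Col-0 had 557 genes that rose (3.24% of 17196) and 317 that fell (1.84%), 5.08% together. The difference of the responses, tested over 24 libraries, passed in 3 of 17736 genes (0.0169%), 2 of them negative (0.0113%) and 1 positive (0.00564%), with 826 at an unadjusted p under 0.05. The change of the glutathione transferase gene GSTF7 was smaller in the mutant than in Col-0 by 2.31 ± 0.38 log2 units (adjusted p = 0.0422). On a common scale for the 36 libraries of the 3 backgrounds, GSTF7 had 60.1, 165 and 245 CPM in flg22 and 40.2, 128 and 179 CPM in untreated mutant seedlings, against 48.0, 118 and 158 CPM in flg22 and 7.0, 12.2 and 39.5 CPM in untreated Col-0 seedlings. The untreated mutant libraries were thus all above the untreated Col-0 libraries, while the flg22 libraries overlapped. CTF2B, a flavin monooxygenase-like gene, also differed (-2.02 ± 0.38, adjusted p = 0.0497), with a mean of 4.4 ± 2.1 CPM in flg22 and 7.4 ± 3.2 CPM in untreated mutant libraries, against 5.6 ± 3.2 and 2.3 ± 0.40 CPM in flg22 and untreated Col-0 libraries (SD, n = 6 each). GSTF7 and its neighbour GSTF6 are near-identical copies, so their reads are uncertain. The library labelled Col-0 low Pi untreated A3 had the highest level of its group in GSTF7 (39.5 CPM, against 7.0 to 17.8 CPM in the other 5). It was also the highest in PR1 (18.0 CPM, against 0 to 0.37 CPM), LURP1 (28.7 CPM, against 0 to 0.23 CPM), PCC1 (6.5 CPM, against 0 to 0.43 CPM) and BIP3 (4.5 CPM, against 0 to 0.56 CPM), and in ANK, PBS3, CBP60G and EDS1. Without it 1 gene had a more positive and 8 a more negative change in the mutant. GSTF7 was then at -2.70 (adjusted p = 0.000928), PHT1;1 at 1.17 (adjusted p = 0.0342) and CTF2B at -1.92 (adjusted p = 0.059). No other gene was followed through that fit, so the further negative genes are not named. The counts of the own fit of Col-0 were not computed without this library.

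PHT1;1 was the 1 gene with a larger change in the mutant, by 1.21 ± 0.22 log2 units (adjusted p = 0.0422). It averaged 180 ± 66.8 CPM in flg22 and 82.0 ± 11.5 CPM in untreated mutant libraries, against 195 ± 28.3 and 208 ± 28.9 CPM in flg22 and untreated Col-0 libraries (SD, n = 6 each). The untreated mutant libraries were all below the untreated Col-0 libraries, and the flg22 libraries overlapped. Of the camalexin genes none of 8 passed in the mutant's own fit, and 7 of 8 rose in that of Col-0 (median log2 change 1.86). None of them passed the test of the difference, so the counts alone do not show unequal responses. These differences failed in most of the 24 fits that left out 1 library, that of PHT1;1 in 17, that of GSTF7 in 18 and that of CTF2B in 17. Without untreated mutant replicate A2 the adjusted p was 0.128 for PHT1;1, 0.128 for GSTF7 and 0.164 for CTF2B.

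At high Pi the mutant's own fit had 808 genes that rose (4.71% of 17166) and 440 that fell (2.56%), 7.27% together. Without the library labelled untreated B1, 1025 rose (5.90%) and 628 fell (3.61%) of 17375, 9.51% together. The difference of the responses, low Pi minus high Pi, passed in 30 of 17808 genes (0.168%), 1 positive (0.00562%) and 29 negative (0.163%). Without that library it passed in 4 positive (0.0223%) and 25 negative genes (0.139%) of 17942, 0.162% together. Genes linked to salicylic acid were frequent among the negative ones, 3 of 25 tested synthesis and regulator genes (PBS3, EDS1 and CBP60G) and 4 of 19 tested output genes (ANK, PCC1, LURP1 and GSTF7), against 0.163% of all genes. Without that library 4 of 25 (the same 3 and NPR3) and 3 of 19 (the same without LURP1) passed, against 0.139% of all genes. In the own fits, none of 25 tested synthesis and regulator genes rose and 3 fell in the mutant at low Pi, against 10 of 23 that rose and none that fell at high Pi (11 of 23 without that library). The wild type at low Pi had 2 of 21 that rose and none that fell, in a fit that kept its library labelled untreated A3. That count was not computed without A3, which had the highest PBS3, CBP60G and EDS1 levels of its group. PCC1 had the largest difference (-6.47 ± 0.99, adjusted p = 0.0121). It had 2.6, 18.6 and 33.5 CPM in flg22 and 16.5, 60.5 and 108 CPM in untreated seedlings at low Pi, against 3.9, 16.8 and 29.6 CPM in flg22 and 0, 0.64 and 1.34 CPM in untreated seedlings at high Pi, where the library labelled untreated B1 was at 0. The flg22 libraries of both supplies overlapped, and the untreated ones did not.

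EDS1, CBP60G and BIP3 also had higher mean untreated levels at low Pi than at high Pi. Of the genes in this paragraph, those other than COPT1, PCC1, BIP3, ANK, LURP1 and AT3G28510 were chosen for it after their values were seen. EDS1, a central lipase-like regulator of immunity, averaged 32.9 ± 3.4 CPM in flg22 and 35.7 ± 5.1 CPM in untreated libraries at low Pi, against 38.0 ± 4.2 and 23.0 ± 2.3 CPM in flg22 and untreated libraries at high Pi (SD, n = 6 each; difference -0.83 ± 0.15, adjusted p = 0.0145). CBP60G, a transcription factor that activates ICS1, averaged 21.7 ± 4.0 CPM in flg22 and 25.9 ± 11.5 CPM in untreated libraries at low Pi, against 24.1 ± 8.4 and 9.6 ± 4.5 CPM in flg22 and untreated libraries at high Pi (-1.52 ± 0.29, adjusted p = 0.0197). BIP3 averaged 0.62 ± 0.43 CPM in flg22 and 12.5 ± 10.0 CPM in untreated libraries at low Pi, against 1.07 ± 0.58 and 0.38 ± 0.42 CPM in flg22 and untreated libraries at high Pi. Without the library labelled untreated B1 the untreated means at high Pi were 22.8 ± 2.5 CPM for EDS1, 9.8 ± 4.9 CPM for CBP60G and 0.35 ± 0.46 CPM for BIP3 (SD, n = 5 each). The differences of PBS3 (-3.21 ± 0.62), ANK (-5.96 ± 0.90), AT3G28580 (-3.26 ± 0.64) and the immunity-linked gene HIR2 (-1.08 ± 0.18) were also negative, and so were those of AT1G30720 (-1.44 ± 0.25), AT1G30730 (-1.12 ± 0.20) and SQD1 (-0.78 ± 0.16). LURP1 (-5.20 ± 1.02, adjusted p = 0.0378) and AT3G28510 (-3.45 ± 0.69, adjusted p = 0.0375) no longer passed without the library labelled untreated B1 (adjusted p = 0.0694 and 0.0511). Without high Pi untreated replicate A1 the difference of LURP1 was -5.84 (adjusted p = 0.0528). The other 13 differences passed without the library labelled untreated B1. They were then -6.21 for PCC1, -5.93 for BIP3, -5.63 for ANK, -3.24 for PBS3, -3.15 for AT3G28580, -2.28 for GSTF7 and -1.55 for CBP60G. The same fit gave -1.43 for AT1G30720, -1.12 for AT1G30730, -1.05 for HIR2, -0.84 for EDS1, -0.72 for SQD1 and 0.81 for COPT1. Of the 15 differences from high Pi considered here, those of PCC1, ANK, EDS1, HIR2, AT1G30720 and AT1G30730 passed in each of 23 further fits that left out 1 library. Those of LURP1 failed in 17 of these fits, AT3G28510 in 14, COPT1 in 11, SQD1 in 10 and AT3G28580 in 9. PBS3 failed in 4, BIP3 in 2, and CBP60G and GSTF7 in 1 each. BIP3 (-5.80 ± 1.06, adjusted p = 0.0183) had an adjusted p of 0.0659 without high Pi flg22 replicate A2, and PBS3 one of 0.0831. The copper transporter gene COPT1 had the 1 positive difference (0.81 ± 0.16, adjusted p = 0.0316).

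**Figure D4:**
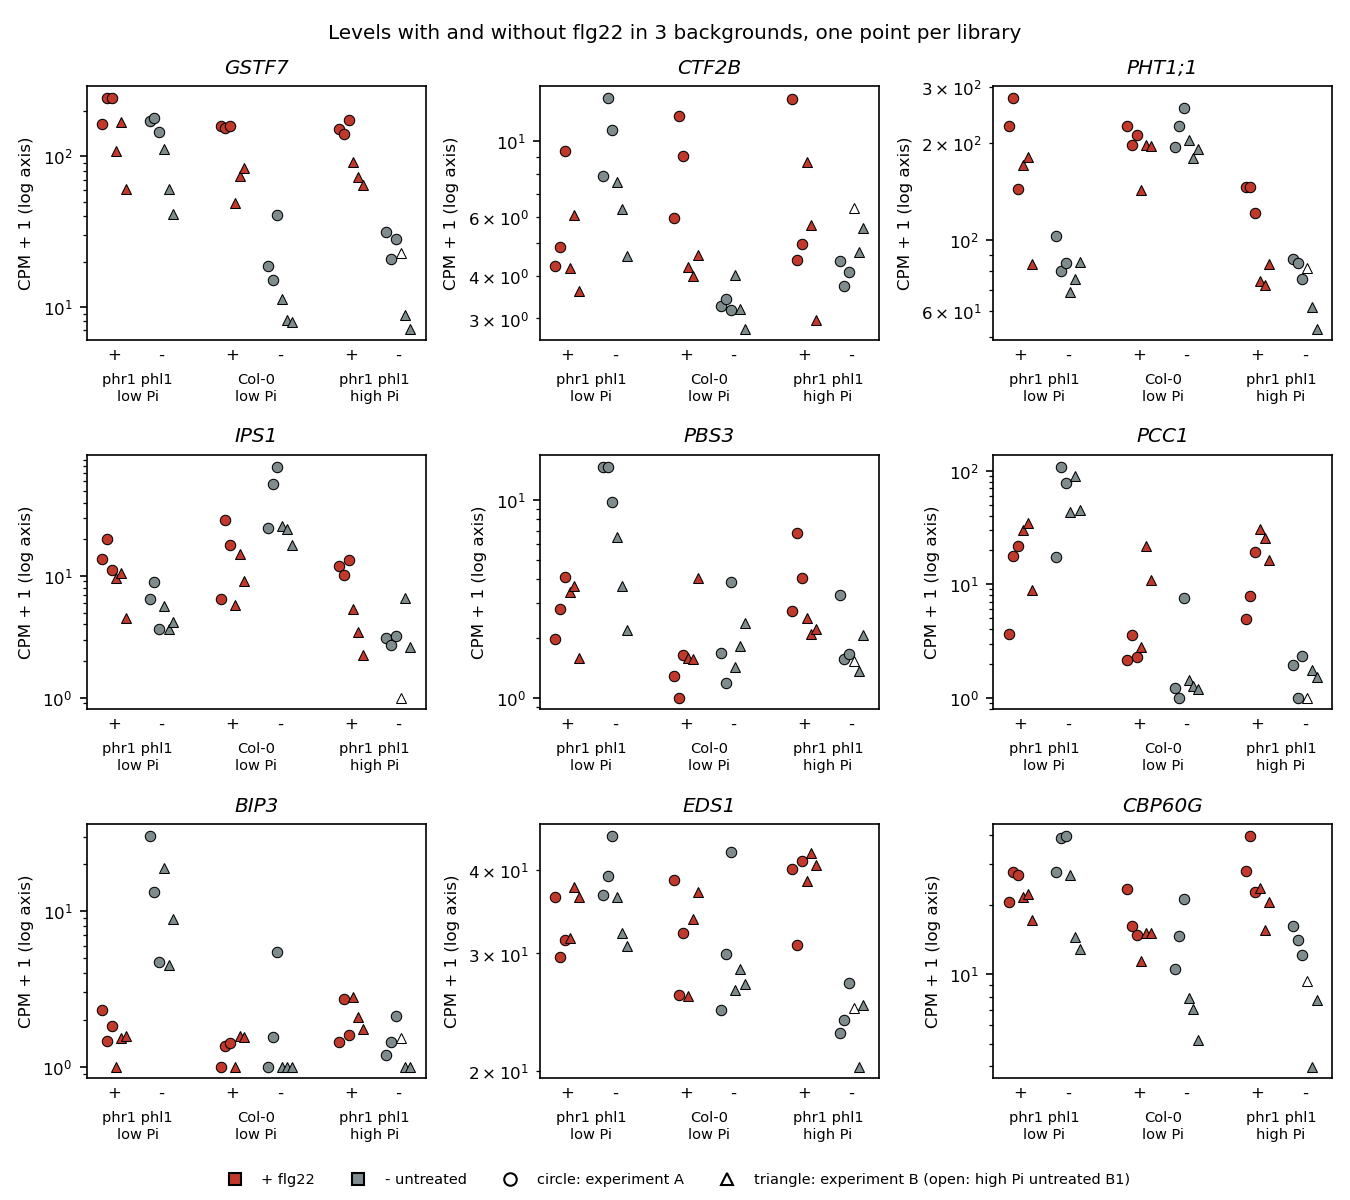
CPM plus 1 on a log axis (y) of 9 genes in flg22 (+, red) and untreated (-, grey) libraries of phr1 phl1 at low Pi, Col-0 at low Pi and phr1 phl1 at high Pi, 1 point per library, circles for experiment A, triangles for experiment B and an open triangle for the high Pi library labelled untreated B1. GSTF7 and PCC1 are high in untreated mutant libraries at low Pi, and PHT1;1 is low in them relative to Col-0.

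**Figure D5:**
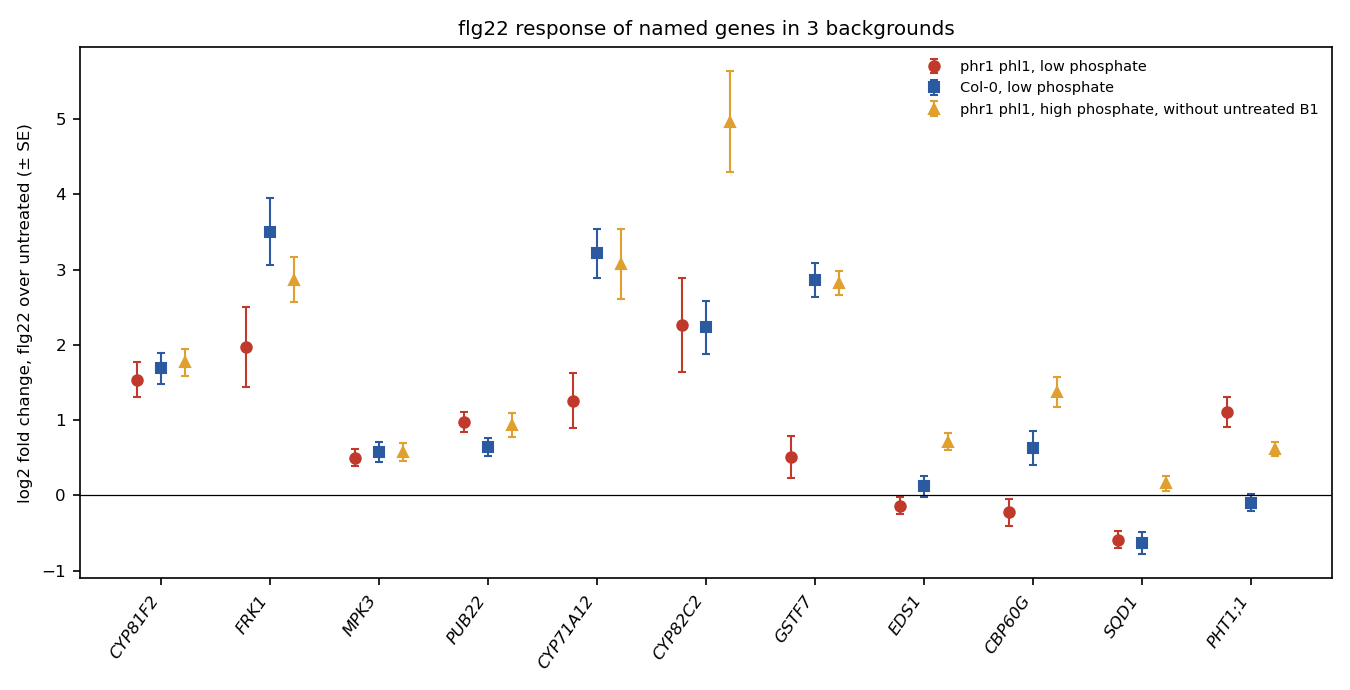
Log2 fold change ± SE (flg22 over untreated, y axis) of 11 genes that were tested in all 3 backgrounds, each from its own fit, with the high Pi value without the library labelled untreated B1. CYP81F2, MPK3 and PUB22 lie close together, while GSTF7 is at 0.51 in the mutant at low Pi, 2.86 in Col-0 at low Pi and 2.82 in the mutant at high Pi.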

How the data were processed

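RNA was measured in 72 seedling libraries, of which 12 make up the main comparison and 36 the 3 backgrounds compared. The values are raw read counts for 27206 loci in a table deposited by the authors. Per the submitters' processing notes, the tools were CASAVA 1.8, cutadapt 1.3, TopHat2 2.1.1 and HTSeq 0.6.1p1, with TAIR10 as the build. Libraries were poly(A)-selected and not stranded, per the labels' protocols, so overlapping and antisense genes cannot be told apart, and counting may split near-identical genes.

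From the counts, edgeR 4.0.16 (R 4.3.3, limma 3.58.1) was used with filterByExpr (minimum count 10), TMM scaling and a robust quasi-likelihood test with experiment as covariate, adjusted by Benjamini-Hochberg over all genes tested at 0.05. Errors after ± are SE for log2 changes and SD for means. CPM were computed from the same scaling, so comparisons of CPM between genes do not account for length. Differences between backgrounds were interaction contrasts over 24 libraries each. DESeq2 1.42.0, RLE scaling, no filter, other sample sets, a replicate block and leaving out each library were the alternatives. Scripts were tested on simulated data.

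Groups came from the labels, which call the libraries biological replicates of 2 experiments but do not say that each came from its own plate. The p-values thus measure the spread between these libraries, which may in part be technical. No 2 libraries of a group agreed within sampling noise (chi-square per degree of freedom at least 2.56 over 30 pairs). Gene symbols came from RefSeq, which matched 26719 loci.

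The members, the 24 gene lists (440 genes, of which 439 were in the table and 369 were tested) and the tests were chosen with earlier results of these data known. Genes were named by rule. It took up to 10 that rose and 10 that fell by size of change, from genes that averaged 1 or more on the log2 CPM scale and moved the same way in each experiment. It also took up to 5 in each direction for each difference, up to 4 called members of each list (otherwise the 2 of lowest p) and a fixed set of FLS2, BAK1, FRK1, PR1, ICS1, IPS1, SPX1, PHT1;1, PHR1 and PHL1. CML41, CYP81F3, EDS1, CBP60G, HIR2, IOS1, JOX2, PEN2, PEN3, PRX34, PRX71, WRKY22, ZAT10, AT1G30720, AT1G30730 and AT4G01700 were named after their values were seen. Other treatments and genotypes of the series were used only in the models over 71 or 72 libraries.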

Additional observations from a re-analysis of the deposited data

Results flagged for a closer look

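Of 198 sets of 6 libraries examined (1 gene and 1 treatment each), 11 held a single library far from the other 5, and chance gives about 1 in 20. In untreated seedlings replicate A1 was far above the others in NRT1.8 (22.1 CPM, against 4.05 to 7.79 in the other 5), AT1G43910 (93.8, against 9.93 to 36.3), AT3G28510 (62.6, against 8.5 to 27.8) and AT3G28580 (23.5, against 3.61 to 9.82). The same library was far above the others in PRX34 (989 CPM, against 133 to 328) and GSTU24 (127 CPM, against 74.1 to 88.5). Untreated replicate B1 was high in PRX52 (5.01 CPM, against 0 to 1.56) and PDF1.3 (6.68 CPM, against 0.405 to 1.87). Among flg22 libraries, replicate A1 was high in RNS1 (7.61 CPM, against 2.88 to 3.86) and NAC013 (19.8 CPM, against 9.14 to 11), and replicate A2 in CYP82C2 (31.3 CPM, against 1.77 to 11.6).

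The flg22 response differed from that of Col-0 at low Pi in the test of the difference for PHT1;1 (1.21 on the log2 scale), GSTF7 (-2.31) and CTF2B (-2.02). Without the library labelled Col-0 low Pi untreated A3, 1 positive and 8 negative differences passed, and that of CTF2B did not. Between low and high Pi in the mutant the flg22 response differed for COPT1 (0.805), BIP3 (-5.80), ANK (-5.96), PCC1 (-6.47), LURP1 (-5.20), AT3G28510 (-3.45), AT3G28580 (-3.26) and PBS3 (-3.21). It also differed there for EDS1 (-0.832), CBP60G (-1.52), GSTF7 (-2.08), SQD1 (-0.777), AT1G30720 (-1.44), AT1G30730 (-1.12) and HIR2 (-1.08). ANK, PCC1, LURP1, PBS3, EDS1 and CBP60G are linked to salicylic acid, and COPT1 carries copper.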

How the results depend on the processing

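The 679 rises and 352 falls became 366 and 183 in a model over all 72 libraries, 412 and 219 over 71 (without the library labelled high Pi untreated B1), and 129 and 56 with no covariate. Experiment A alone gave 406 rises and experiment B alone 113 rises and 30 falls. RLE scaling, DESeq2 and no filter stayed within 1.5 times both counts. Leaving out 1 library gave 471 to 719 rises and 164 to 453 falls.

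The difference from Col-0 (1 positive, 2 negative) became 14 and 22 with DESeq2, and 0 and 0 with no covariate (534 genes at an unadjusted p under 0.05) or in experiment A alone (1488). The negative count was 1 with no filter and 1 in the 72-library model. Leaving out 1 library gave 0 to 12 positive and 0 to 8 negative, with 12 without flg22 replicate A2. The difference from high Pi (1 positive, 29 negative) became 15 and 82 with DESeq2, 2 and 5 over 72 libraries, 0 and 3 over 71, and 0 and 9 with no covariate. It was 24 and 69 in experiment A alone and 5 and 10 in B alone, and 4 were positive without the high Pi library untreated B1. Leaving out 1 library gave 0 to 11 positive and 10 to 59 negative, the highest of both without untreated replicate B3 at low Pi. For the difference between experiments (0 and 0), DESeq2 gave 4 and 12 and leaving out 1 library 0 to 1 in each direction. Leaving out Col-0 and high Pi libraries was chosen after seeing the data.

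Sign changes were limited to genes that did not pass. PHR1 was at 0.0169 over 72 libraries, 0.0197 over 71, 0.0394 with no covariate, 0.172 in experiment B, and -0.103 to 0.0762 leaving out 1 library. In experiment B alone FLS2 was at -0.00583, ICS1 at 0.121, EDS1 at 0.084 and CBP60G at 0.15, and FLS2 spanned -0.0673 to 0.20 leaving out 1 library. The causes were not tested.

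Libraries with the same replicate number were not treated as pairs in the main test. Deviations of same-numbered libraries correlated at -0.188 to 0.185, and 2 of 6 flg22 libraries were closest to their own number. So few libraries cannot show whether same-numbered ones share an origin. With the replicate block 604 genes rose and 336 fell, 1 and 4 differed from Col-0, and 1 and 37 from high Pi. Of 117 gene values, 10 no longer passed with the block and 4 newly passed. With 3 libraries per treatment in each experiment, single-experiment fits have little precision.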
